A study of Danio rerio with 6 samples.

Results

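The chemokine and chemokine receptor genes examined were all those of the deposited table whose symbol starts with cxcl, ccl and a digit, xcl, cxcr, ccr and a digit, xcr, ackr or cmklr, the last being receptors of the chemoattractant chemerin. They numbered 43 of the 17835 genes listed, namely 25 ligands and 18 receptors, and names alone chose them. Of these, 31 had a mean value above 5 over the 6 libraries and were tested (15 ligands and 16 receptors), while 12 lay at or below 5 and are described without a test.

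Chemokines are small secreted proteins that attract leukocytes, endothelial cells and progenitor cells, and each acts through receptors with 7 membrane-spanning segments that couple to G proteins. A smaller set of atypical receptors binds chemokines without G protein signalling and removes them, which shapes the gradients that other cells follow. In the injured heart, chemokines made by the lining of the ventricle and by the epicardium are known to guide neutrophils, macrophages and growing coronary vessels.

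Endocardial cells were sorted as EGFP+ cells from cryoinjured ventricles of adult zebrafish at 96 hours post cryoinjury (hpci). There were 3 libraries from myd88-/- fish, which carry the hu3568 loss-of-function allele in every cell, and 3 from myd88+/+ siblings. Every fish of both genotypes was cryoinjured and carried the enhancer trap ET(krt4:EGFP) sqet33-1A, which drives the EGFP used for sorting, so that no uninjured sample entered the comparison, and each library held the pooled cells of 4 ventricles. The fish of the study were of the AB strain and 3 to 12 months old, and the ages of those in each library are not given in the sources used here. The comparison asks how loss of MyD88, the adaptor of Toll-like and interleukin-1 receptors, changes the chemokine genes of the injured endocardium.

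Values are normalized read counts, and they summed to between 11136966 and 11348450 in myd88-/- libraries and between 11530505 and 11847536 in myd88+/+ libraries. The normalized count of myd88 was 817, 575 and 849 in myd88-/- libraries, against 1305, 1149 and 1070 in myd88+/+ libraries, an adjusted p of 0.150 in limma. Endocardial and endothelial markers were abundant, with summed values of 91885 to 150653 in myd88-/- and 118231 to 147523 in myd88+/+ libraries over 12 of 12 markers, of which 0 passed the criteria and 5 had an unadjusted limma p under 0.05. Epicardial and fibroblast markers, 11 of 11, summed to 62802 to 83373 in myd88-/- and 85760 to 97873 in myd88+/+ libraries, and 0 had an unadjusted limma p under 0.05. The list holds aldh1a2 and col5a1, which the paper also reports in endocardial cells, so the sum does not measure other cells alone. Cardiomyocyte markers, 9 of 10 listed, summed to 19201 to 26407 in myd88-/- and 19653 to 29597 in myd88+/+ libraries. Macrophage markers, 17 of 17, summed to 1885 to 4167 in myd88-/- and 2799 to 6515 in myd88+/+ libraries. Neutrophil markers other than srgn, a gene that endothelial cells also express, summed to 53 to 84 in myd88-/- and 86 to 214 in myd88+/+ libraries, with 4 of 9 listed. Only 2 of these, ncf1 and mmp9, were tested, 0 passed the criteria, and the genotypes overlapped in mmp9. With srgn the sums overlapped, at 14372 to 15744 in myd88-/- and 14303 to 20163 in myd88+/+ libraries. In myd88-/- replicate 3, 251 genes were more than 2-fold above each other library, against 13 to 36 genes in each of the others. Fits without this library are given for several members, but not for every member that it moved.

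One chemokine gene passed the criteria of an adjusted p under 0.05 and a change above 1.5-fold: the atypical receptor ackr4b, which was lower in myd88-/- cells. That is 1 of 31 members tested (3.23%), where 0.702% of all 16383 genes tested passed, 0.562% as lower and 0.140% as higher. An unadjusted p under 0.05 was reached by 5 members (16.1%), beside 13.2% of all genes. All 5 were receptors, 31.2% of the 16 receptors tested. Of these, ackr4b, cxcr4b, ccr9a and a ccr2 gene were lower (12.9% of members, beside 6.97% of all genes). ccr11.1 was higher (3.23% of members, beside 6.20% of all genes). The genotypes did not overlap in 4 members (12.9%), beside 18.1% of all genes: ackr4b, ccr2 and cxcl8a were lower in every myd88-/- library (8.98% of all genes) and ccr11.1 was higher (9.09%). Over the 31 members the median log2 fold change was -0.04, beside 0.01 over all genes, with 17 below 0 and 14 above. The shares by unadjusted p and by overlap lay near those of all genes, the share past the criteria rests on 1 gene, and no chemokine ligand passed in limma, where 0 of 15 had an unadjusted p under 0.05. The counts depended on single libraries: members with an unadjusted p under 0.05 numbered 9 when myd88+/+ replicate 3 was dropped, 8 when myd88-/- replicate 3 was, and 3 when either myd88+/+ replicate 2 or myd88-/- replicate 1 was. Genes past the criteria over the whole table were 28 without myd88+/+ replicate 2 and 247 without myd88-/- replicate 3. Non-overlapping members numbered 10 without myd88+/+ replicate 3 and also 10 without myd88-/- replicate 3. That count can only stay or rise when a library is left out, so its rise shows nothing about single libraries. For unadjusted p and overlap, the shares of all genes in these fits are not given here.

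**Figure D1:**
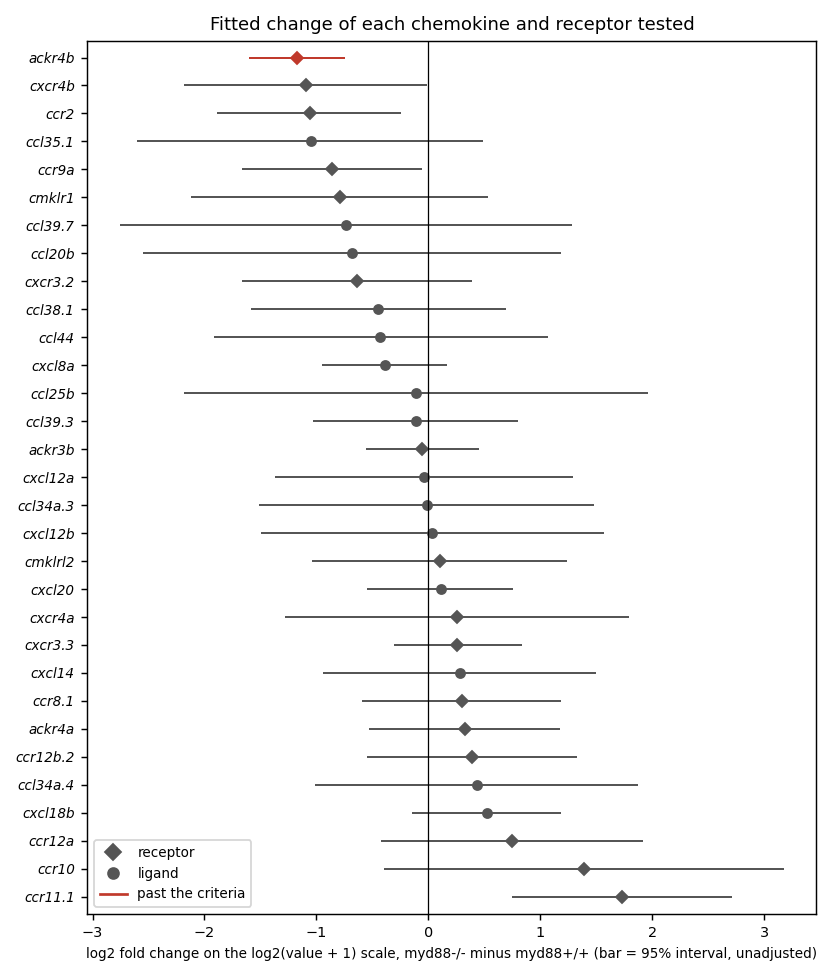
Fitted log2 fold change of the 31 members tested, myd88-/- minus myd88+/+, with unadjusted 95% intervals from limma; diamonds are receptors, circles ligands, and red marks the gene past the criteria. ackr4b at -1.17 is the only red point, ccr11.1 at 1.73 lies farthest above 0, and most intervals span 0.

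Among the atypical receptors, ackr4b stood apart. ACKR4 is known in mammals as a scavenger of CCL19, CCL21 and CCL25, and zebrafish has the pair ackr4a and ackr4b. The gene ackr4b (ENSDARG00000040133, danRer11 chromosome 24, 11381400 to 11390669, plus strand) had normalized counts of 2657, 3049 and 4440 in myd88-/- libraries, against 7677, 7055 and 7523 in myd88+/+ libraries. The groups were far apart, with a coefficient of variation of 27.7% in myd88-/- libraries and of 4.37% in the tightly bunched myd88+/+ libraries. The means were 3382 ± 937 in myd88-/- and 7418 ± 324 in myd88+/+ cells (SD, n = 3 each), which limma fitted as -1.17 ± 0.19 (SE) in log2 units (adjusted p = 0.0287). Only 4 of the 115 genes past the criteria had a higher mean normalized count, a rank not corrected for transcript length. The size of the change held, at -1.38 to -1.01 with 1 library left out, but the call did not. ackr4b passed in 4 of 11 alternative fits, not counting the test against a 1.5-fold change, which no member passed. It passed in 1 of 6 that left out a library, the one without myd88-/- replicate 3 (adjusted p = 0.00149 in limma). The remaining 5 fits of that kind gave adjusted p-values of 0.105 to 0.149.

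ackr4b lies on the chromosome of myd88, 8.80 Mb away, and myd88-/- fish share the sequence around the mutant allele. Within 10 Mb of myd88, 7.58% of 211 genes tested passed the criteria, against 0.612% of genes elsewhere, and within 1 Mb of ackr4b 3 of 17 other genes did. These were si:ch211-69l10.4 and acad11, both higher in myd88-/- cells, and tm9sf1, which was lower (genes named after their values were seen). The whole span of ackr4b, 9270 bases, lies within that of acad11 (chromosome 24, 11350330 to 11446166), an acyl-CoA dehydrogenase gene on the minus strand. The counts of acad11 went the other way, with 356, 324 and 386 in myd88-/- libraries, against 159, 157 and 183 in myd88+/+ libraries, which limma fitted as 1.09 ± 0.15 (SE) in log2 units (adjusted p = 0.0145). This call too was lost when single libraries were dropped, with adjusted p = 0.0668 for myd88+/+ replicate 1, 0.103 for myd88+/+ replicate 2 and 0.0871 for myd88-/- replicate 1. The counting discarded reads that touched exons of both genes, and the sources used here do not state if strand was used. The effect of MyD88 loss and that of linked sequence cannot be told apart here.

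**Figure D2:**
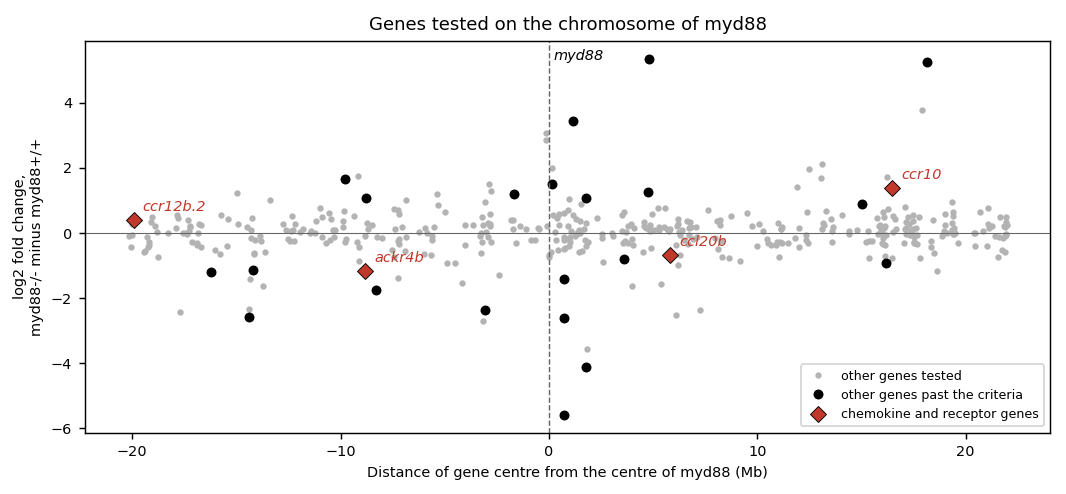
Log2 fold change of the genes tested on the chromosome of myd88 (chromosome 24), myd88-/- minus myd88+/+, by distance from myd88 in Mb; black points passed the criteria and red diamonds are chemokine and receptor genes. ackr4b lies 8.80 Mb from myd88 and is the only one of the 4 red points past the criteria.

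The other atypical receptors did not pass. ackr4a (chromosome 2, 31671545 to 31674403) reached 103, 78 and 65 in myd88-/- libraries, against 57, 115 and 40 in myd88+/+ libraries, so the groups overlapped and the difference lay between -0.52 and 1.17 on the log2 scale (95% interval). ackr3b, which clears Cxcl12 in zebrafish embryos and so lets migrating cells follow it, had 1106, 842 and 1508 in myd88-/- libraries, against 1362, 948 and 1225 in myd88+/+ libraries (chromosome 6, 15751982 to 15757867). The fitted value of -0.06 had an interval of -0.55 to 0.44, and single libraries decided its sign, with 0.15 once myd88-/- replicate 2 was dropped and 0.06 once myd88+/+ replicate 1 was. Whether these receptors differ from ackr4b in their response was not tested.

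Among signalling receptors of the CXC class, cxcr4b showed the widest gap. Cxcr4 is the signalling receptor for Cxcl12, and cxcr4b is carried by zebrafish leukocytes and by migrating primordia. Its counts (chromosome 9, 10692905 to 10694930) were 112, 245 and 427 in myd88-/- libraries, against 451, 815 and 313 in myd88+/+ libraries. The 2 lowest values were of myd88-/- and the 2 highest of myd88+/+ libraries, with 1 of each overlapping in between. The limma fit gave -1.09 ± 0.47 (SE) in log2 units (unadjusted p of 0.0464, adjusted p = 0.369). Leaving out 1 library moved it between -1.55, without myd88-/- replicate 3, and -0.59, without myd88-/- replicate 1. Its duplicate cxcr4a, known for coronary vessel growth in zebrafish, was near the limit of detection at 2, 12 and 6 in myd88-/- libraries, against 7, 3 and 4 in myd88+/+ libraries (chromosome 6, 12922002 to 12923727).

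The pair cxcr3.2 and cxcr3.3 lie 9.21 kb apart on chromosome 16. In zebrafish larvae Cxcr3.2 drives macrophage migration, whereas Cxcr3.3 is described as a scavenging counterpart. cxcr3.3 (11834516 to 11840134) had 117, 153 and 209 in myd88-/- libraries, against 125, 161 and 107 in myd88+/+ libraries, and the interval of the fitted log2 change ran from -0.30 to 0.83. cxcr3.2 had 25, 45 and 66 in myd88-/- libraries, against 89, 92 and 35 in myd88+/+ libraries, and the interval ran from -1.66 to 0.38. Both pairs of groups overlapped. The neutrophil receptors cxcr1 and cxcr2, the receptors of Cxcl8, were not listed under these symbols, nor were ackr3a and ccr7. They could therefore not be examined here.

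**Figure D3:**
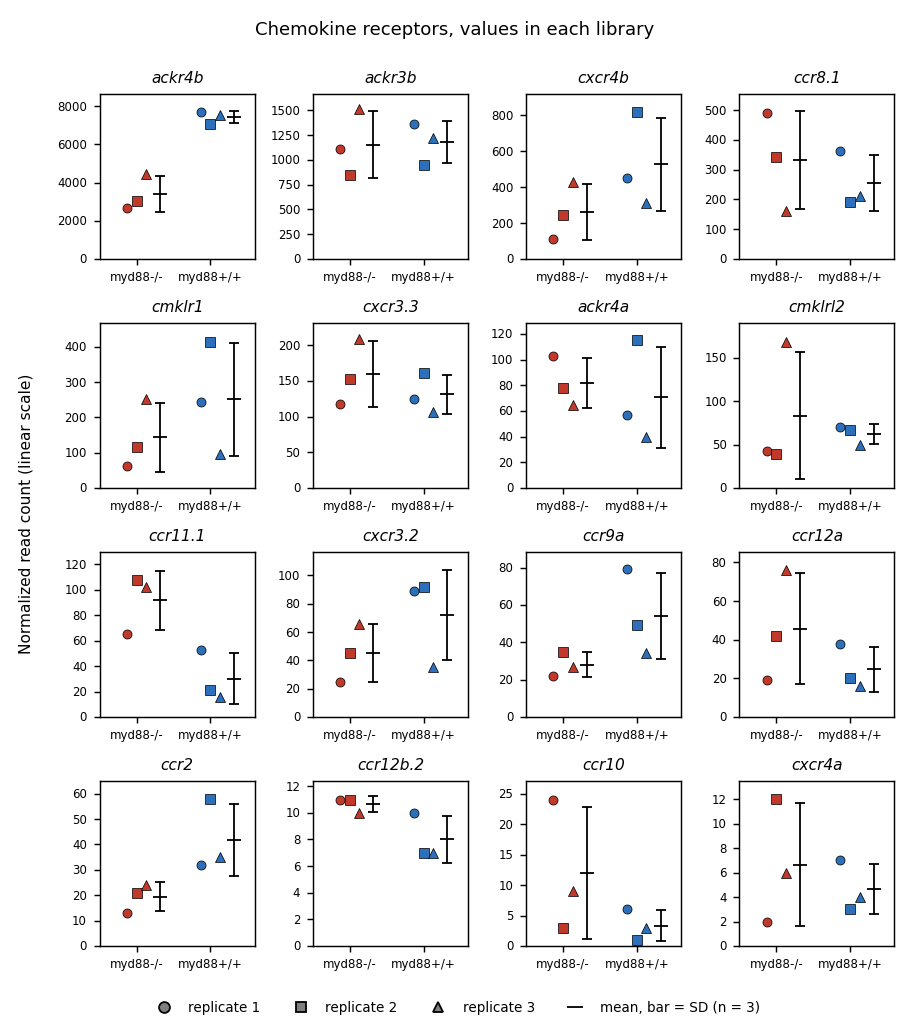
Normalized read counts of the 16 receptors tested in each library, on a linear scale with its own range in each panel; myd88-/- libraries are red, myd88+/+ libraries blue, symbols mark replicates, and the bar is the mean ± SD (n = 3 each). ackr4b, ccr2 and ccr11.1 show no overlap between genotypes, and in cmklr1 the myd88-/- values of 116 and 251 lie within the range of the myd88+/+ values of 245, 415 and 95.

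Of 9 CC receptor genes listed, 7 were tested. The receptor ccr11.1 (ENSDARG00000070755, chromosome 16, 7697878 to 7699207) had the largest fitted change of the 31 members tested, and it was higher in every mutant library, with 65, 108 and 102 in myd88-/- libraries, against 53, 21 and 16 in myd88+/+ libraries. The limma fit gave 1.73 ± 0.43 (SE) in log2 units (unadjusted p of 0.00291, adjusted p = 0.141), and the gene is counted as not passing. Of 11 alternative fits, again without the test against a 1.5-fold change, it passed the criteria in 1. That was when myd88+/+ replicate 1, the highest of its group, was left out (2.23, adjusted p = 0.0432 in limma). No role is given to this receptor here.

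A ccr2 gene and ccr9a had values of the opposite sign. The table lists ccr2 under 2 identifiers 3.22 kb apart, and the one tested (ENSDARG00000079829, chromosome 16, 8668519 to 8670413) had 13, 21 and 24 in myd88-/- libraries, against 32, 58 and 35 in myd88+/+ libraries. CCR2 in mammals brings monocytes out of the bone marrow. The mutant libraries were all lower, with a fitted log2 change of -1.06 ± 0.36 (SE) (unadjusted p of 0.0161 in limma, adjusted p = 0.253). The other ccr2 identifier (ENSDARG00000105363) had 0 to 8 in single libraries. For ccr9a, a receptor of Ccl25 (chromosome 2, 32796873 to 32799083), counts were 22, 35 and 27 in myd88-/- libraries, against 79, 49 and 34 in myd88+/+ libraries. The groups overlapped by a single count, and limma gave -0.86 ± 0.35 (SE) in log2 units (unadjusted p of 0.0369, adjusted p = 0.346). ccr8.1 (chromosome 16, 9421002 to 9425451) had 491, 344 and 162 in myd88-/- libraries, against 364, 190 and 211 in myd88+/+ libraries. The remaining 3 tested, ccr12a, ccr12b.2 and ccr10, had fitted log2 changes of 0.75, 0.39 and 1.39 (adjusted p = 0.490 to 0.735 in limma), and in ccr10 a count of 24 in myd88-/- replicate 1 stood above 1 to 9 elsewhere.

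The chemerin-type receptors were both listed. cmklr1, a receptor of macrophages and natural killer cells in mammals (chromosome 5, 20570573 to 20590795), had 63, 116 and 251 in myd88-/- libraries, against 245, 415 and 95 in myd88+/+ libraries. The fitted log2 change of -0.79 had an interval of -2.11 to 0.52. Refits of cmklr1 that each dropped a single library ranged from -1.37 to -0.31. Dropping myd88+/+ replicate 3 gave the lower end (unadjusted p of 0.0312 in limma, adjusted p = 0.287). The upper end came from dropping myd88+/+ replicate 2 (adjusted p = 0.903 in limma), and dropping myd88-/- replicate 1 gave -0.32. Its neighbour cmklrl2 had 43, 39 and 168 in myd88-/- libraries, against 70, 67 and 49 in myd88+/+ libraries, so that a single library set its log2 fold change of 0.10, which was -0.57 without it.

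Some members were compared with the macrophage markers across the libraries, and only cxcr4b ordered them as the marker sum did. The macrophage marker sum was 1885, 2443 and 4167 in myd88-/- libraries, against 4892, 6515 and 2799 in myd88+/+ libraries, and cxcr4b placed the 6 libraries in the same order as that sum. Set against the sum, cxcr4b amounted to 5.94 to 10.2 per 100 in myd88-/- libraries and to 9.22 to 12.5 per 100 in myd88+/+ libraries. For ccr2 the same figure was 0.690, 0.860 and 0.576 per 100 in myd88-/- libraries, against 0.654, 0.890 and 1.25 per 100 in myd88+/+ libraries. In both genes the ranges overlapped after this division, and in cxcr4b they had overlapped before it. cmklr1 and cxcr3.2 also had their highest value in myd88+/+ replicate 2 and their lowest in myd88-/- replicate 1, as the sum had. Others compared went otherwise: cxcl8a was highest in myd88+/+ replicate 3, ccl35.1 was lowest there, and ccr9a was highest in myd88+/+ replicate 1. The macrophage list itself had 0 of 17 genes past the criteria and 5 with an unadjusted limma p under 0.05. Its genes did not move alike: fitted log2 changes ran from -1.83 for marco to 0.98 for csf1ra, with lcp1 at -0.10. The sum is thus no even measure of the list. In bulk samples fewer cells of a type and less RNA per cell cannot be told apart, and the part of leukocytes in these receptor values was not tested. These members were picked for this comparison after their values were seen.

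**Figure D4:**
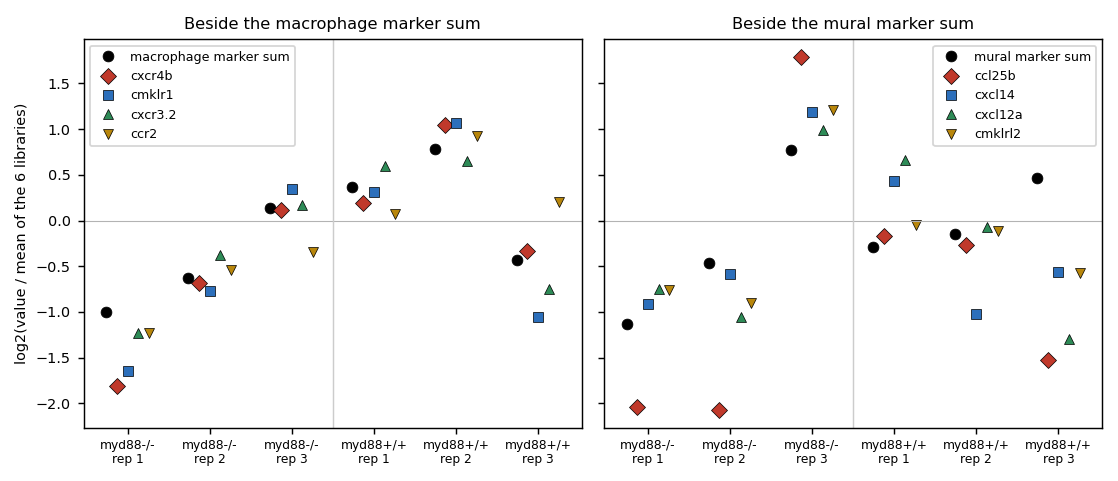
Log2 of each value over the mean of the 6 libraries, with receptors beside the macrophage marker sum (left) and ligands and cmklrl2 beside the mural marker sum (right). On the left every point of myd88-/- replicate 1 lies below 0 and every point of myd88+/+ replicate 2 above it, and on the right every point of myd88-/- replicate 3 lies above 0. The members on the right were all highest in that library, so their place above 0 there followed from which members were shown. In myd88+/+ replicate 3 the mural marker sum lies above 0 and the genes beside it below. There ccr2 lies above 0 and the macrophage marker sum below.

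Ligands were examined next, beginning with those that attract neutrophils. Cxcl8 and the fish chemokine Cxcl18b both act on zebrafish neutrophils through Cxcr2. cxcl18b (ENSDARG00000075045, chromosome 1, 49222164 to 49225890) had 2016, 1899 and 2221 in myd88-/- libraries, against 2116, 1636 and 828 in myd88+/+ libraries. The mutant libraries were close together, with a coefficient of variation of 7.97%, whereas the wild-type libraries were spread by 42.6%. The limma fit gave 0.52 ± 0.29 (SE) in log2 units (unadjusted p of 0.107, adjusted p = 0.485). The difference lay between -0.14 and 1.18 on the log2 scale (95% interval), and the groups overlapped. For cxcl18b single libraries mattered, with 0.13 once myd88+/+ replicate 3 was dropped. Dropping myd88+/+ replicate 1 gave 0.81 (unadjusted p of 0.0146 in limma, adjusted p = 0.389). cxcl8a (chromosome 1, 14253118 to 14254166) had the reverse spread, with 61, 103 and 108 in myd88-/- libraries, against 114, 114 and 119 in myd88+/+ libraries. Every mutant value was lower, yet by as little as 6 counts, and limma gave -0.39 ± 0.24 (SE) in log2 units (unadjusted p of 0.141, adjusted p = 0.534). cxcl18a.1, a relative of cxcl18b on chromosome 13, had 1, 2 and 6 in myd88-/- libraries, against 1, 0 and 0 in myd88+/+ libraries.

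The Cxcl12 ligands, which act on Cxcr4 and are cleared by Ackr3, varied far more within genotypes than between them. cxcl12a (chromosome 13, 30804367 to 30819715) had 183, 147 and 607 in myd88-/- libraries, against 485, 292 and 125 in myd88+/+ libraries. cxcl12b (chromosome 22, 26929554 to 26945493), which guides coronary vessels in zebrafish, had 63, 80 and 142 in myd88-/- libraries, against 277, 79 and 30 in myd88+/+ libraries. cxcl12a was high in 1 library of each genotype and cxcl12b in myd88+/+ replicate 1, and the intervals of their log2 fold changes, -1.36 to 1.28 and -1.49 to 1.56, include changes of 2-fold in either direction. In both the difference of plain means and the fitted log2 change had opposite signs. For cxcl12a the means were 312 in myd88-/- and 301 in myd88+/+ libraries, beside a fitted value of -0.04, and dropping myd88-/- replicate 3 gave -0.67 while dropping myd88+/+ replicate 1 gave 0.41. For cxcl12b the fitted value of 0.03 was -0.30 without myd88-/- replicate 3 and 0.86 when myd88+/+ replicate 1 was dropped.

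Further ligands were high in myd88-/- replicate 3. cxcl14, a chemokine of epithelia and fibroblasts in mammals (chromosome 14, 24400799 to 24410673), had 243, 305 and 1045 in myd88-/- libraries, against 620, 226 and 309 in myd88+/+ libraries. ccl25b, named for the ligand that draws progenitors to the thymus through Ccr9 (chromosome 11, 6259048 to 6265723), had 49, 48 and 696 in myd88-/- libraries, against 180, 167 and 70 in myd88+/+ libraries. In ccl25b the other myd88-/- libraries were below every myd88+/+ library, and the fitted log2 change, -0.11 ± 0.91 (SE) with all libraries, was -1.38 once myd88-/- replicate 3 was dropped (unadjusted p of 0.00632 in limma, adjusted p = 0.128). For cxcl14 the change of 0.28 became -0.37. Of the members tested, 10 had their highest value in this library, a count for which the share of all genes is not given here. By the 2-fold rule, ccl25b and cmklrl2 were above each other library there, as were 1.53% of all genes. The sum of the mural and smooth muscle markers was highest in the same library, at 13519 against 3611 and 5739 in the other myd88-/- libraries and 6454 to 10913 in myd88+/+ libraries. acta2 alone gave 8190 of the 13519. Markers of this list did not peak alike. acta2, rgs5a and cspg4 were highest in myd88-/- replicate 3, but myh11a and tagln in myd88+/+ replicate 3. pdgfrb was highest in myd88+/+ replicate 1 and notch3 in myd88-/- replicate 2. The match was of this library only: in myd88+/+ replicate 3 the sum was 10913, yet ccl25b, cxcl14, cxcl12a and cmklrl2 were below their means. Markers of other lists also peaked in myd88-/- replicate 3, among them krt4, lum and nppb, while the epicardial and fibroblast sum peaked in myd88+/+ replicate 3. The members set beside the mural sum all had their highest value in myd88-/- replicate 3, so their shared peak there followed from which members were shown. The part of mural cells in these ligand values was not tested.

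**Figure D5:**
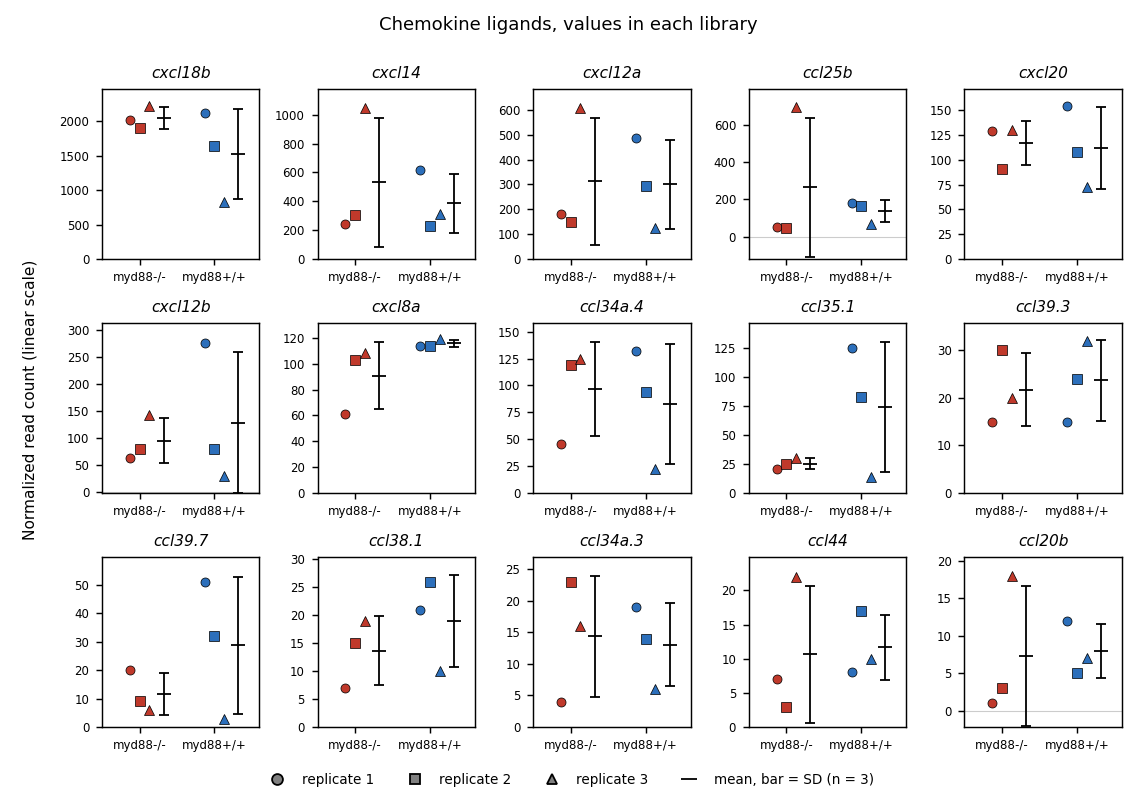
Normalized read counts of the 15 ligands tested in each library, on a linear scale with its own range in each panel; myd88-/- libraries are red, myd88+/+ libraries blue, symbols mark replicates, and the bar is the mean ± SD (n = 3 each). Only cxcl8a shows no overlap between genotypes, and myd88-/- replicate 3 stands alone at 1045 in cxcl14 and 696 in ccl25b.

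The last ligand with a mean of at least 100 was cxcl20 (chromosome 5, 42895592 to 42904329), with 129, 91 and 130 in myd88-/- libraries, against 155, 108 and 73 in myd88+/+ libraries. It lies 1.52 kb from cxcl11.1, a relative of the mammalian Cxcr3 ligands, which was listed at 0 in all 3 myd88-/- libraries, against 3, 6 and 6 in myd88+/+ libraries. The remaining 8 ligands tested were CC chemokines, from ccl34a.4 to ccl20b, with log2 fold changes of -1.05 to 0.43 and adjusted p-values of 0.552 to 0.997 in limma. The lowest belonged to ccl35.1 (chromosome 25, 13048201 to 13050959), with 21, 25 and 30 in myd88-/- libraries, against 125, 83 and 14 in myd88+/+ libraries. myd88+/+ replicate 3 thus lay below every mutant library. Refits of ccl35.1 that each dropped a single library ranged from -1.98 to -0.44 in log2 units. The lower end came from dropping myd88+/+ replicate 3 (adjusted p = 0.0598 in limma). Dropping myd88+/+ replicate 1, the highest of its group, gave the upper end (adjusted p = 0.883 in limma).

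The 12 members with a mean of 5 or less held at most 13 counts in any library, where counting error alone is above 31.6% for values under 10. They were ccr6a, the ccr2 identifier named above, ccl34b.1, ccl34b.3, ccl34b.4, ccl34b.8, ccl19a.1, ccl33.3, ccl39.6, cxcl11.1, cxcl18a.1 and cxcl32b.1. In 3 of the 12 the genotypes did not overlap, beside 6.75% of the 1452 listed genes with a mean of 5 or less, a difference that was not tested. ccl34b.1 had 8, 6 and 8 in myd88-/- libraries, against 0, 0 and 3 in myd88+/+ libraries, ccl34b.3 had 8, 4 and 6 in myd88-/- libraries, against 3, 0 and 1 in myd88+/+ libraries, and cxcl11.1 was the one lower in mutants. With no filter on low values 0 of the 12 passed the criteria in limma and the same 3 had an unadjusted p under 0.05 (3.86% of those 1452 genes), with adjusted p-values of 0.188 to 0.361. Each listed gene reached at least 6 in at least 1 library, so these 3 are listed only through the genotype where they are high. Neither their separation nor their p-values are therefore support for a difference. The ccl34b genes sit together on chromosome 24, 7.20 to 7.26 Mb from myd88, so that here too linked sequence and MyD88 loss cannot be told apart.

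Chemokine genes sit in clusters of copies, and 22 of the 43 members lay within 100 kb of another member. Chromosome 24, that of myd88, held 9 of them, the most of any chromosome, and 7 lay within 10 Mb of myd88, of which ackr4b and ccl20b were tested. Reads that matched several places had been removed, so close copies such as the ccl34 and ccl39 genes may be counted too low in both genotypes. Besides ackr4b, ccl19a.1 and cxcl18a.1 overlap another listed gene, ube2l3b and rassf4a.

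Genes that carry the receptor signal inward were taken from a list of G protein subunits, arrestins, receptor kinases and regulators of cell movement, of which 48 were tested. One passed the criteria and it was lower, 2.08% beside 0.702% of all genes, and 5 had an unadjusted p under 0.05 (10.4% beside 13.2%). It was gng2 (ENSDARG00000056831, chromosome 13, 12045475 to 12088835), a gamma subunit of the G proteins that chemokine receptors release, with 2679, 2582 and 2992 in myd88-/- libraries, against 5274, 5311 and 4880 in myd88+/+ libraries. The groups were clearly apart, and limma gave -0.91 ± 0.12 (SE) in log2 units (adjusted p = 0.0120). It stayed past the criteria without myd88-/- replicate 3 or myd88+/+ replicate 3, and the other 4 fits of that kind gave adjusted p-values of 0.0550 to 0.103. Next were the small GTPase gene rhoab, at -0.90 ± 0.17 (SE) with an adjusted p of 0.0544 in limma, and pik3cg, the PI3K isoform that answers to chemokine receptors, at 0.48 ± 0.15 (SE) with an adjusted p of 0.217. rhoab had 2099, 2854 and 2667 in myd88-/- libraries, against 5470, 3968 and 4758 in myd88+/+ libraries, passed without myd88-/- replicate 3 and overlaps tmem115. gng5 and rock1 followed with -0.43 and 0.32, and the median of the 48 was -0.01.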

How the data were processed

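Per the study's methods and the labels, the authors used Trimmomatic for trimming and STAR for alignment to danRer11, removed duplicate, multimapping, ribosomal and mitochondrial reads with Picard, counted exon reads of single genes with featureCounts, and normalized with DESeq2. The deposited values are a score: counts divided by a size factor and rounded. Rounding left marks (0 genes at 20 in myd88+/+ replicate 1, with 107 and 120 at the neighbouring values) that place the factors of 5 libraries between 0.975 and 1.03. Counting error is thus about 31.6% at 10 and 3.16% at 1000. All 6 columns were used.

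limma 3.58.1 in R 4.3.3 (lmFit, eBayes with an intensity trend, two-sided) was run on log2(value + 1) across the 16383 genes with a mean above 5, and p-values were Benjamini-Hochberg adjusted over all of them. Fold changes understate low genes. The criteria were an adjusted p under 0.05 and a change above 1.5-fold. Replicates are separate pools of 4 ventricles. Alternatives were a pseudocount of 5, no filter, equal totals, no trend, a replicate block, a test against 1.5-fold, and each library left out. The fit was tested on simulated data.

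Values in every library are given for members with a mean of at least 100, an unadjusted p under 0.05, no overlap, or a place on a list of names, and, chosen after their values were seen, for most others. Members and lists were chosen with earlier results of these data known. All 43 member identifiers were found in a gene name table, 33 with the same symbol. Apart from the rank of ackr4b by normalized count, levels were not compared between genes, because no transcript lengths were used.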

Additional observations from a re-analysis of the deposited data

How the results depend on the processing

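Of 341 fits of single members under alternatives other than the test against 1.5-fold, 300 kept their direction and side of the threshold, and 16 of 31 members never changed sign. The replicate number as a block gave 45 genes past the criteria, with 0 members and 0 signalling genes (ackr4b at a limma adjusted p of 0.0733). Same-numbered libraries deviated with correlations of -0.12, 0.13 and -0.14, and differently numbered ones with -0.18 to 0.25. With 3 libraries per genotype these values cannot decide if the numbers mark a shared batch. No trend gave 25 genes, 0 members and 0 signalling genes (ackr4b 0.161), and a test against 1.5-fold gave 24 genes and 0 members. With no filter, 8 members had an unadjusted p under 0.05, 7 did not overlap and 2 signalling genes passed. The members this added, ccl34b.1, ccl34b.3 and cxcl11.1, are listed only through the genotype where they are high. With equal totals the log2 fold change was 0.00 for ackr3b, 0.02 for cxcl12a and 0.04 for ccl34a.3, and with a pseudocount of 5 it was 0.03 for ccl34a.3, all of the other sign. The causes were not tested.

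With 1 library left out, genes past the criteria were 28 to 247, members past them 0 to 1, members with an unadjusted p under 0.05 3 to 9, members without overlap 5 to 10 (a count that can only stay or rise), and signalling genes past the criteria 0 to 2. The 1 member without myd88+/+ replicate 1 was ccr11.1, not ackr4b. Over the same fits the sign changed for ackr3b (-0.27 to 0.15), ackr4a (-0.01 to 0.74), ccl20b (-1.60 to 0.03), ccl25b (-1.38 to 0.53), ccl34a.3 (-0.47 to 0.66), ccl34a.4 (-0.33 to 0.93), ccl39.3 (-0.40 to 0.13), ccl44 (-1.10 to 0.16), ccr8.1 (-0.05 to 0.75), cmklrl2 (-0.57 to 0.47), cxcl12a (-0.67 to 0.41), cxcl12b (-0.72 to 0.86), cxcl14 (-0.37 to 0.69), cxcl20 (-0.17 to 0.37) and cxcr4a (-0.24 to 0.81).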
